A study of Mus musculus with 4 samples.

Results

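The acute phase proteins and pentraxins described here are 10 plasma protein genes chosen by symbol: *Apcs* and *Crp*, the serum amyloid A genes *Saa1*, *Saa2*, *Saa3* and *Saa4*, haptoglobin (*Hp*), the orosomucoids *Orm1* and *Orm2*, and lipocalin 2 (*Lcn2*). All 10 were found among the 35739 genes of the liver RNA-seq table, and all 10 were among the 9581 genes that averaged 1 TPM or more and were tested. TPM, the abundance of transcripts scaled to a fixed library total, corrects for transcript length, so levels can be compared between genes. The livers came from WT mice, replicates 2 and 3, and from *Usp21* KO littermates, replicates 1 and 3, aged 10 to 11 weeks on a normal diet, with 1 library per mouse and 2 libraries per genotype. *Usp21* encodes a ubiquitin-specific protease, and its KO allele lacks exons 3 and 4 in every cell of the body. It was made in ES cells of a strain other than B6 and kept on a mixed background of both strains, and the sex of the mice is not given in the sources used here. With 2 mice per genotype, the p-values measure only the spread between these animals.

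When tissue is injured or infected, macrophages release interleukin 6 (IL-6) and interleukin 1, which act on hepatocytes through STAT3, C/EBP and NF-kB to change which plasma proteins the liver makes. Proteins that increase in plasma are called positive acute phase proteins, and albumin and transthyretin are examples of negative ones. Pentraxins are ring-shaped plasma proteins that bind bacteria, dying cells and amyloid. In mice, serum amyloid P component, the product of *Apcs*, is the pentraxin that responds most to inflammation, whereas C-reactive protein, the product of *Crp* and the main acute phase pentraxin of humans, responds little. Serum amyloid A proteins travel on high-density lipoprotein, haptoglobin captures free haemoglobin, orosomucoids carry drugs and lipids, and lipocalin 2 withholds iron from bacteria by binding their siderophores.

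The bases just before the start sites of 5 members are shown, namely the neighbouring pentraxins *Apcs* and *Crp*, whose values differ, and *Saa1*, *Saa2* and *Orm2*, which were high in the same library. RefSeq sequences (GRCm38.p6) were at hand for 8 of the 10 members, all except *Hp* and *Orm1*, and up to 250 bases before each start were taken, without bases that GENCODE counts as transcribed. They are written 5′ to 3′ on the strand of the gene, and capitals mark matches to the searched motifs.
Apcs, reverse strand, chr1:172895055-172895304: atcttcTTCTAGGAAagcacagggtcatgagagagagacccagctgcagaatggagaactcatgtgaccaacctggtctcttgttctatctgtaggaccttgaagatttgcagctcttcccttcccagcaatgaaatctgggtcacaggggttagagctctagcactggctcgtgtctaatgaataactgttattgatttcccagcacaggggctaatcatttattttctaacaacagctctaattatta
Crp, forward strand, chr1:172697806-172698054: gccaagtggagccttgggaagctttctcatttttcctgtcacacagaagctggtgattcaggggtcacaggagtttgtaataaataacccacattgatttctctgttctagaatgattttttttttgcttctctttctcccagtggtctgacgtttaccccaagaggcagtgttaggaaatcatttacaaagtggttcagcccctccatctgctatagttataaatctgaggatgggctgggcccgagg
Saa1, reverse strand, chr7:46742981-46743230: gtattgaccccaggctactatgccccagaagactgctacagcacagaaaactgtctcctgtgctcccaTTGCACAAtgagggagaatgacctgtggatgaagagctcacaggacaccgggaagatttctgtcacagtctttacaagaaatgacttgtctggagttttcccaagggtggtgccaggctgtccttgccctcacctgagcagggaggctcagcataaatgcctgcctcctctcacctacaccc
Saa2, forward strand, chr7:46751583-46751789: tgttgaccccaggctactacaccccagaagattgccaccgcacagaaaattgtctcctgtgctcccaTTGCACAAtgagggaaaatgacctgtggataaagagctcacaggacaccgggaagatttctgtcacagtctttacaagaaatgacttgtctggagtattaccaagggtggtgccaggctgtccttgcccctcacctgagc
Orm2, forward strand, chr4:63362199-63362448: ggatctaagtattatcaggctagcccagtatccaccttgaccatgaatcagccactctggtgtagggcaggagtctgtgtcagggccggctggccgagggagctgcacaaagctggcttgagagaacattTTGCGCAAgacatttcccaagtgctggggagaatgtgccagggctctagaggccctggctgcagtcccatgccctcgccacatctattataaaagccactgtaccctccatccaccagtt

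Motifs were searched on both strands over the full 250 bases of 32851 promoters. The motifs were TTGCNNAA for C/EBP, TTCNNNGAA for STAT3, GGNNTTTCC for NF-kB and ACANNNTGT for the glucocorticoid receptor. A C/EBP match was found in 9.56% of all promoters, a STAT3 match in 7.02%, an NF-kB match in 4.93% and a glucocorticoid receptor match in 5.84%. *Apcs* held 1 STAT3 match, TTCTAGGAA, between 244 and 236 bases before its start. *Saa1* and *Saa2* shared the C/EBP match TTGCACAA, and their promoters were 95.6% identical over 249 aligned bases. *Orm2* held the C/EBP match TTGCGCAA between 120 and 113 bases before its start. None of the motifs was found before *Crp*. A C/EBP match was also found in *Saa3*, in *Saa4* and in *Lcn2*, with 1 further match to NF-kB in *Saa3* and to the glucocorticoid receptor in *Lcn2*. GENCODE counts all 250 bases searched for *Lcn2* as transcribed, so its matches are not before the start of its longest annotated span. No matches overlapped. These matches are letters in a window and not measured binding.

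*Usp21* was at 4.07 and 6.29 TPM in WT livers and at 1.64 and 2.93 TPM in KO livers (log2 fold change -0.92, SE 0.33, unadjusted p of 0.0336 by limma). TPM covers the whole gene, so RNA of the exons that were not deleted still counts. The WT library of replicate 3 stood apart from the other 3 libraries in several of these genes, though not in *Apcs*, *Crp* or *Saa3*. This bears on the comparisons of genotypes that follow. Over all genes tested the 2 WT libraries were the closest pair, with 5.06% of genes at least 2-fold apart. The sum of the 10 members was 3328 TPM in WT replicate 2, 7140 TPM in WT replicate 3, 3417 TPM in KO replicate 1 and 3387 TPM in KO replicate 3. As a share of all TPM, this was 0.333%, 0.715%, 0.343% and 0.339%. Of the 10 members, 5 were at least 2-fold higher in WT replicate 3 than in WT replicate 2 (*Saa1*, *Saa2*, *Lcn2*, *Orm2* and *Saa4*) and 0 were at least 2-fold lower. Among all 9581 genes, 3.0% were at least 2-fold higher and 2.07% at least 2-fold lower between these 2 libraries. *Saa1* had the 5th highest difference of all genes tested, *Saa2* the 6th, *Lcn2* the 10th, *Orm2* the 17th and *Saa4* the 85th. Between the KO libraries, 0 members were at least 2-fold higher and 1 (*Saa2*) was at least 2-fold lower in replicate 3, against 2.18% and 4.38% of all genes. These are comparisons of single libraries with no test.

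**Figure D1:**
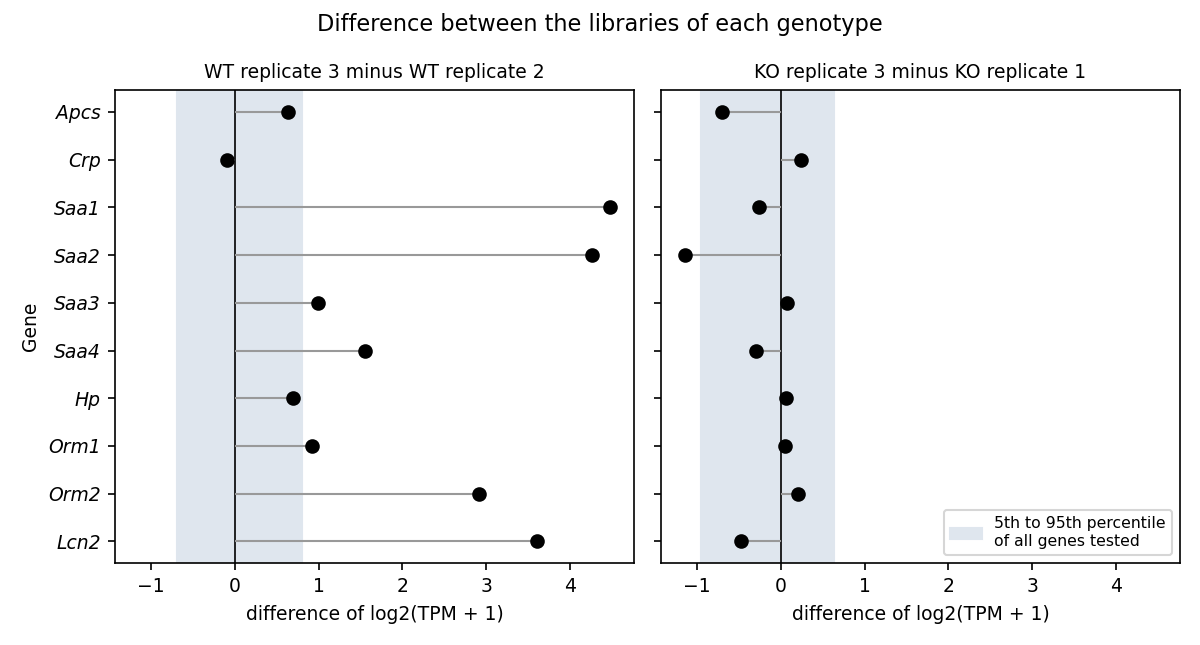
Difference of log2(TPM + 1) between the 2 libraries of each genotype for the 10 members, WT on the left and *Usp21* KO on the right, with the shaded band holding the 5th to 95th percentile of all genes tested. In the WT panel *Saa1* (4.48), *Saa2* (4.26), *Lcn2* (3.61) and *Orm2* (2.91) lie far to the right of the band, while in the KO panel only *Saa2* (-1.15) lies outside it.

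In the comparison of genotypes, which asks how loss of *Usp21* changes liver gene expression, *Apcs* was the only member at least 2-fold higher in KO, and *Saa2*, *Orm2* and *Lcn2* were at least 2-fold lower. Among all genes, 2.59% were at least 2-fold higher and 1.1% at least 2-fold lower. By limma, 0 members passed an adjusted p of 0.05, a threshold that 0.0835% of all genes (8 genes) passed. At an unadjusted p of 0.05, 1 member was higher in KO (*Apcs*) and 0 were lower, against 8.45% and 2.04% of all genes. The groups did not overlap for 1 member that was higher (*Apcs*) and 2 that were lower (*Hp* and *Lcn2*), against 34.4% and 10.9% of all genes. In all, 3 members were higher and 7 lower in KO, against 66.7% of all genes higher. The members' median log2 fold change was -0.41, compared with 0.15 over all genes tested.

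The split of the members rested on WT replicate 3. Without that library 7 members were higher in KO and 3 were lower, near the 64.4% of all genes that were higher. The members' median log2 fold change was then 0.45, compared with 0.15 over all genes. Without WT replicate 2 it was -0.82, compared with 0.15, with 2 members higher and 8 lower, against 65.6% of all genes higher. The scaling of the libraries changed the split less, with 2 members higher and 8 lower after upper quartile or TMM scaling. Of all genes, 54.0% and 50.9% were higher after these scalings. The median of all genes was 0.15 on the TPM as deposited, 0.04 after upper quartile scaling and 0.01 after TMM scaling. Both scalings bring the libraries to a common level by design, so a fall of this median was built in. Whether the deposited scale was shifted or the genes differed was not tested. Of all genes with an unadjusted p under 0.05, 80.6% were higher in KO as deposited, 56.0% after upper quartile scaling and 50.4% after TMM scaling. Relative to the median of all genes, the members' median was -0.56, -0.58 and -0.59 on these scales.

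**Figure D2:**
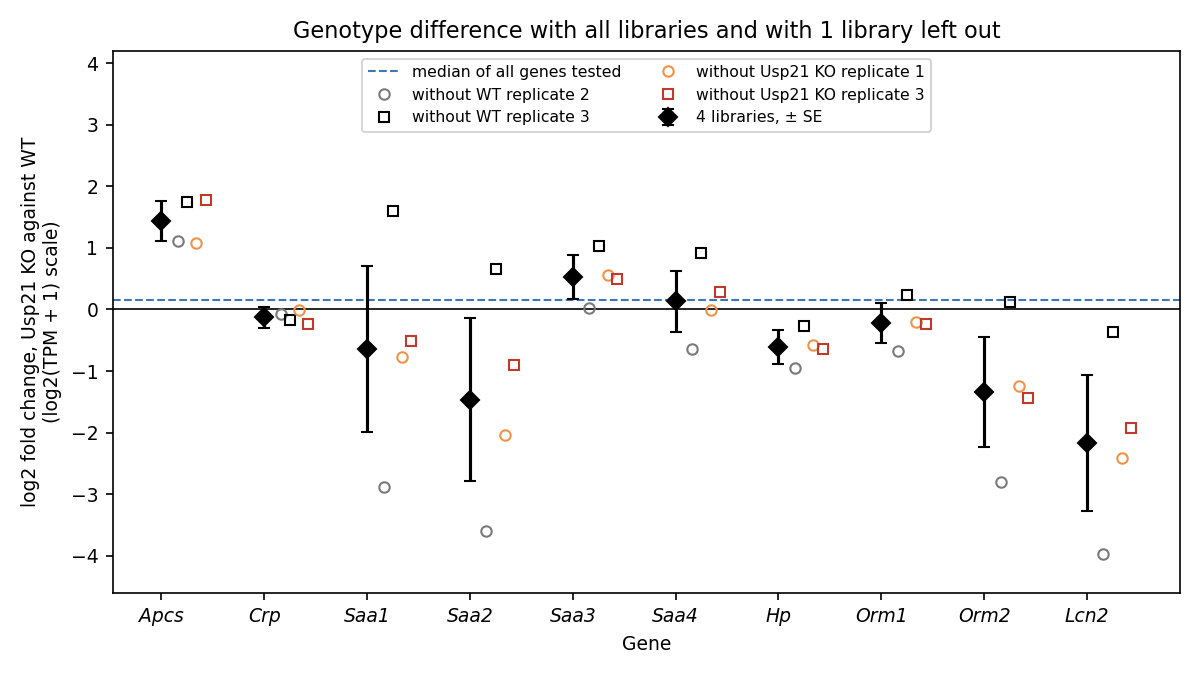
Log2 fold change of each member in *Usp21* KO against WT on the log2(TPM + 1) scale, with all 4 libraries (diamonds, bars are ± SE) and when 1 library is dropped (open symbols); the dashed line is the median of all genes tested. *Apcs* stays between 1.09 and 1.78 whichever library is left out, whereas *Saa1* moves from -2.87 without WT replicate 2 to 1.61 without WT replicate 3.

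*Apcs* was higher in both KO livers than in both WT livers. The gene (ENSMUSG00000026542) is transcribed from the reverse strand of chromosome 1 (172893961 to 172895041 in GRCm38). Its level was 51.3 TPM in WT replicate 2, 80.3 TPM in WT replicate 3, 224 TPM in KO replicate 1 and 138 TPM in KO replicate 3. The means were 65.8 ± 20.5 TPM in WT livers and 181 ± 60.9 TPM in KO livers (SD, n = 2), a ratio of 2.74. The log2 fold change was 1.43 with an SE of 0.32, and limma gave an unadjusted p of 0.00496 and an adjusted p of 0.443. The difference was thus larger than the spread within the genotypes, but it did not pass the adjusted threshold. The study had already listed *Apcs* among its upregulated genes from this same RNA-seq, so the p-value is not independent support. *Apcs* was higher in KO under each scaling, with 1.28, 1.27 and 1.26 above the median of all genes as deposited and after upper quartile and TMM scaling. When each gene was given its own variance, without moderation, its unadjusted p was 0.0932.

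*Crp* (ENSMUSG00000037942), the other pentraxin that the liver makes, showed no such difference. Its level was 254 and 238 TPM in the WT livers and 208 and 245 TPM in the KO livers, so the groups overlap. The log2 fold change was -0.12 (SE 0.17, adjusted p of 0.796 by limma). The gene starts 0.197 Mb from the start of *Apcs* on the same chromosome, from 172698055 to 172833031 on the forward strand. The transcripts of *Apcs* and *Crp* were 70.6% identical over 865 aligned bases, and *Apcs* shared 0 of its 941 stretches of 31 bases with transcripts of any other gene, so reads of *Apcs* can be told apart from those of *Crp*.

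**Figure D3:**
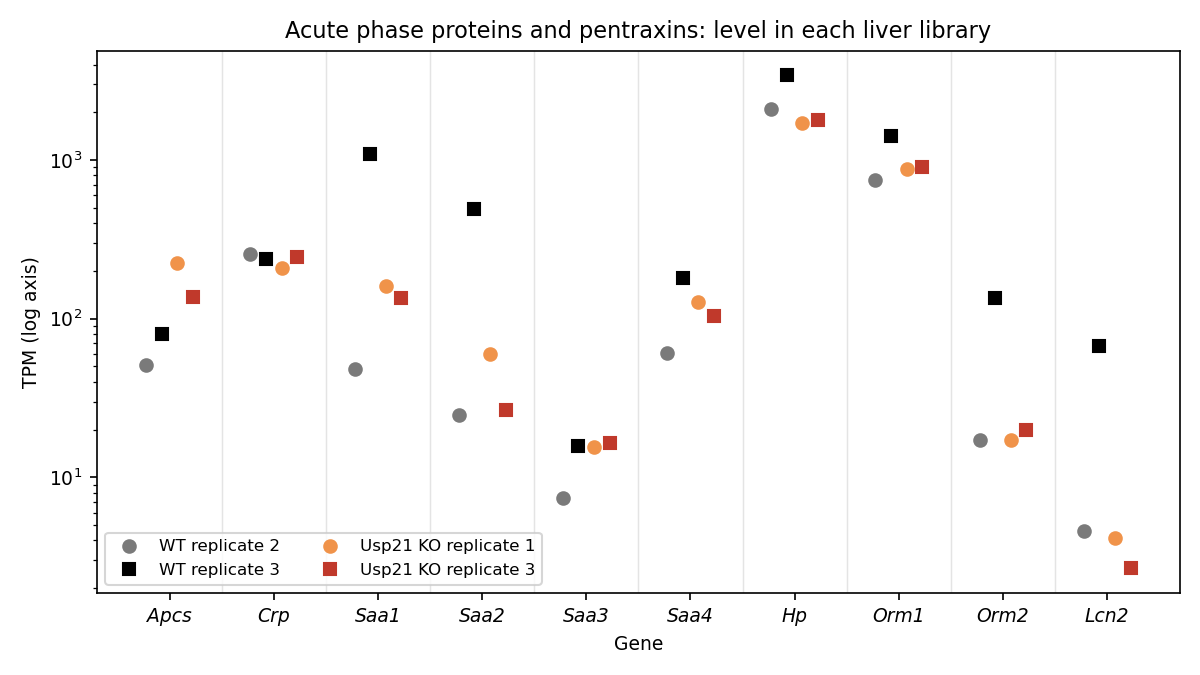
Level of each member in TPM (log axis) in the 4 liver libraries, 1 point per mouse. For *Apcs* both KO points lie above both WT points (138 and 224 against 51.3 and 80.3 TPM), and for *Saa1*, *Saa2*, *Orm2* and *Lcn2* WT replicate 3 lies above the other 3 libraries.

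Set against each of the other 9 members within the same library, *Apcs* was relatively higher in KO, as it was against most genes. The log2 ratio of *Apcs* to *Crp* was -2.29 and -1.55 in WT and 0.11 and -0.83 in KO, a difference of 1.56. Against *Hp* it was -5.33 and -5.39 in WT and -2.94 and -3.70 in KO, a difference of 2.04. Against *Orm1* the difference was 1.65, against *Saa4* 1.30 and against *Saa3* 0.91. Larger differences were found against *Saa2* (2.90), *Orm2* (2.77) and *Lcn2* (3.60), in which WT replicate 3 was high. For 8 of the 9 members the ratios of the 2 genotypes did not overlap, and the exact permutation test gave p = 0.333 for each (two-sided, 0.375 after adjustment over 9 comparisons), the smallest p that 2 against 2 libraries allow. The ratio of *Apcs* to all other genes tested was separated in this direction for 91.4% of 9580 genes, so the count of 8 is near the background and tells of *Apcs* more than of the other members. The exception was *Saa1*, with a difference of 2.07 and p = 0.667 by the exact permutation test, because its ratio in WT replicate 2 (0.10) lay between those of the KO livers (0.47 and 0.03). Without WT replicate 3 the difference was 0.15 against *Saa1*, 1.09 against *Saa2*, 1.64 against *Orm2* and 2.12 against *Lcn2*. As a share of the members' summed TPM, *Apcs* made up 1.54% and 1.12% in WT and 6.54% and 4.06% in KO.

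The inducible serum amyloid A genes were dominated by 1 WT liver. *Saa1* was at 47.8 TPM in WT replicate 2 and at 1089 TPM in WT replicate 3, a ratio of 22.8, while the KO livers had 162 and 135 TPM. The KO livers therefore lay between the WT livers, and the log2 fold change of -0.63 (SE 1.35, adjusted p of 0.871 by limma) turned to 1.61 without WT replicate 3. *Saa2* followed the same order, with 24.7 and 492 TPM in WT livers and 59.6 and 26.4 TPM in KO livers. Its log2 fold change was -1.47 (SE 1.33) with all libraries and 0.66 without WT replicate 3. These genes are neighbours on chromosome 7, *Saa1* from 46740497 to 46742980 and *Saa2* from 46751790 to 46754313. Their transcripts were 94.4% identical, and 46.8% of the 31-base stretches of *Saa1* occur in another gene, so the split of reads between them is uncertain. Their sum, which does not depend on the split, was 72.6 and 1581 TPM in WT livers and 221 and 161 TPM in KO livers (log2 fold change -0.85, SE 1.33, adjusted p of 0.824 by limma).

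*Saa3*, which macrophages and adipocytes express more than hepatocytes do, was low in all libraries. It was at 7.39 and 15.7 TPM in WT livers and at 15.6 and 16.5 TPM in KO livers, so WT replicate 2 alone was low. The log2 fold change was 0.53 (SE 0.35), and 0.03 without WT replicate 2. Markers of Kupffer cells, the macrophages of the liver, summed to 151 TPM in KO replicate 1 and 381 TPM in KO replicate 3, and to 265 and 326 TPM in WT. Their part in the level of *Saa3* was not tested. *Saa4*, the constitutive member of the family, was at 61.0 and 181 TPM in WT livers and at 128 and 104 TPM in KO livers. Its log2 fold change of 0.13 (SE 0.50) was -0.02 relative to the median of all genes, and its sign changed with upper quartile and TMM scaling.

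*Hp* and *Orm1* were the most abundant transcripts of the set, whereas *Orm2* was among the lower ones. *Hp* (chromosome 8, 109575128 to 109579172) was at 2109 and 3416 TPM in WT livers and at 1724 and 1798 TPM in KO livers, so both KO livers were below both WT livers. The log2 fold change was -0.61 (SE 0.28, unadjusted p of 0.0764 and adjusted p of 0.496 by limma), and it was -0.26 without WT replicate 3. *Orm1* was at 751 and 1426 TPM in WT livers and at 876 and 902 TPM in KO livers, with a log2 fold change of -0.22 (SE 0.32) that turned to 0.24 without WT replicate 3. *Orm2* was at 17.1 and 135 TPM in WT livers and at 17.3 and 20.0 TPM in KO livers. Thus WT replicate 2 and the KO livers had nearly the same level of *Orm2*, and its log2 fold change of -1.34 (SE 0.89) became 0.12 without WT replicate 3. The orosomucoid genes lie side by side on chromosome 4, and the *Orm1* and *Orm2* transcripts were 91.0% identical. With *Orm3* added, their sum was 773 and 1571 TPM in WT livers and 894 and 925 TPM in KO livers (log2 fold change -0.28, adjusted p of 0.776 by limma).

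*Lcn2* had the largest negative log2 fold change of the members, -2.17 (SE 1.10, unadjusted p of 0.10 by limma). It was at 4.59 TPM in WT replicate 2, at 67.1 TPM in WT replicate 3, and at 4.12 and 2.67 TPM in KO livers. The groups did not overlap, yet without WT replicate 3 the log2 fold change was -0.37. Neutrophils also make lipocalin 2, so their marker genes were summed. Only 2 of the 13 were high enough to be tested, and 0 of these had an unadjusted p under 0.05 by limma. The 13 neutrophil markers summed to 6.20 and 47.0 TPM in WT livers and to 5.19 and 2.72 TPM in KO livers. In WT replicate 3 most of this sum came from the calcium-binding proteins *S100a8* (2.26 and 29.1 TPM in WT livers, 1.12 and 0.738 TPM in KO livers) and *S100a9* (0.425 and 12.7 TPM in WT livers, 3.04 and 1.11 TPM in KO livers). Of the 13 markers, 11 were below a mean of 1 TPM, and the granule genes *Ltf* and *Mpo* were listed at 0 in all libraries. Without WT replicate 3 the 2 tested markers went opposite ways, with *S100a8* lower and *S100a9* higher in KO. Their median log2 fold change of 0.14 therefore describes neither. *Ly6g*, a surface marker of mouse neutrophils, was listed at 0 in 3 libraries and at 1.38 TPM in WT replicate 3. It was not among the genes named by p, and it says nothing of the other markers. Of the 13 markers, 5 were listed at 0 in WT replicate 2 and 4 in WT replicate 3. In KO replicates 1 and 3, 9 and 8 were listed at 0. The part of neutrophils in the level of *Lcn2* was not tested, and in whole tissue fewer cells of a type and less RNA per cell cannot be told apart.

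*Apcs* was the 7th highest of the members in WT and the 4th highest in KO. In WT the order by mean log2 level was *Hp*, *Orm1*, *Crp*, *Saa1*, *Saa2*, *Saa4*, *Apcs*, *Orm2*, *Lcn2* and *Saa3*, and only *Hp* and *Orm1* were separated from the next gene, since the ranges of all later neighbours overlap. In KO it was *Hp*, *Orm1*, *Crp*, *Apcs*, *Saa1*, *Saa4*, *Saa2*, *Orm2*, *Saa3* and *Lcn2*, in which *Apcs* overlapped with *Crp* and with *Saa1* and all other neighbours were separated. *Hp* and *Orm1* together made up 85.9% and 67.8% of the members' TPM in WT livers and 76.1% and 79.7% in KO. *Saa1* and *Saa2* made up 22.1% in WT replicate 3 and between 2.18% and 6.47% in the other libraries.

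Pentraxins other than *Apcs* and *Crp* were at or near 0. Of 8 such genes, 6 (among them *Ptx3*, the long pentraxin made by macrophages and endothelium) were listed at 0 in all libraries, and 0 reached the mean of 1 TPM needed for the test. Of 34 other genes listed as positive acute phase genes, 29 were tested, of which 16 were higher and 13 lower in KO. Of all genes, 66.7% were higher. The median log2 fold change of the 29 was 0.06, compared with 0.15 over all genes. By limma 0 passed the adjusted threshold. At an unadjusted p of 0.05, 0 were higher and 3 were lower, against 8.45% and 2.04% of all genes. The 3 were the protease inhibitors *Serpina3m* (157 and 181 TPM in WT livers, 61.6 and 59.3 TPM in KO livers, log2 fold change -1.46, unadjusted p of 0.00017) and *Serpina3n* (158 and 203 against 107 and 99.8 TPM, -0.79), and the orosomucoid *Orm3* (4.91 and 9.76 against 1.39 and 2.55 TPM, -1.45). Unlike *Saa1* and *Saa2*, *Serpina3m* differed little between the WT livers. Of these 29 genes, 5 were at least 2-fold higher in WT replicate 3 than in WT replicate 2, against 3.0% of all genes. Between the KO libraries, 1 was at least 2-fold higher and 3 at least 2-fold lower in replicate 3, against 2.18% and 4.38%. Among the 5 were the metallothioneins *Mt1* (216 and 890 TPM in WT livers, 520 and 137 TPM in KO livers) and *Mt2* (106 and 599 TPM in WT livers, 328 and 89.3 TPM in KO livers). Both thus differed between the KO livers as well. Like the fibrinogens, they were named after their values were seen. The 3 fibrinogen chains had log2 fold changes of 0.51 (*Fga*), 0.54 (*Fgb*) and 0.56 (*Fgg*), with groups that did not overlap, as was the case for 34.4% of all genes in this direction.

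Negative acute phase genes did not pass a p threshold, though more of them were lower than higher in KO. All 20 were tested, with 7 higher and 13 lower in KO, against 66.7% of all genes higher. The median log2 fold change of the 20 was -0.15, compared with 0.15 over all genes, and -0.29 compared with 0.04 after upper quartile scaling. By limma 0 had an unadjusted p under 0.05 in either direction, against 8.45% of all genes higher and 2.04% lower. The groups did not overlap for 2 that were higher and 6 that were lower, against 34.4% and 10.9% of all genes. The smallest p-values were those of *Serpina7*, which encodes thyroxine-binding globulin (6.80 and 11.4 TPM in WT livers, 12.3 and 25.1 TPM in KO livers, log2 fold change 0.92), the cytochrome P450 *Cyp2c29* (1177 and 921 against 466 and 926 TPM, -0.66) and *Igf1*, the liver's growth factor output (397 and 411 against 572 and 460 TPM, 0.35).

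The genes of the signalling pathways that drive the members did not all go one way. Of 20 genes of IL-6 and STAT3 signalling, 15 were tested, with a median log2 fold change of 0.37, 3 higher and 0 lower at an unadjusted p of 0.05, and 0 past the adjusted threshold by limma. Of all genes 8.45% were higher and 2.04% lower at this p, with a median of 0.15, and after upper quartile scaling the medians were 0.24 for this list and 0.04 for all genes. The 3 were *Lifr*, the receptor of leukaemia inhibitory factor (46.2 and 41.3 TPM in WT livers, 118 and 87.1 TPM in KO livers, log2 fold change 1.19, unadjusted p of 0.0015), *Stat3* (9.20 and 13.2 against 18.9 and 18.6 TPM, 0.71) and *Il6st*, the shared receptor chain gp130 (7.88 and 7.57 against 10.7 and 12.7 TPM, 0.53). *Il6* and *Lif* were listed at 0 in all libraries. Of 25 genes of IL-1, TNF and NF-kB signalling, 18 were tested, with a median of 0.25 and 1 gene higher at an unadjusted p of 0.05, the interleukin 1 receptor *Il1r1* (4.5 and 2.55 TPM in WT livers, 10.8 and 7.38 TPM in KO livers, log2 fold change 1.17). *Il1rap*, its co-receptor (0.34), and *Rela*, an NF-kB subunit (0.37), had the next smallest p-values.

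The next 5 genes were chosen after their values were seen, because WT replicate 3 was the highest library for each, so they say nothing of such genes in general. *Socs3*, the inhibitor that STAT3 induces, was at 1.80 and 15 TPM in WT livers and at 4.72 and 1.33 TPM in KO livers. *Junb*, an AP-1 subunit, was at 6.76 and 55.6 TPM in WT livers and at 17.0 and 8.57 TPM in KO livers. *Bcl3*, an NF-kB cofactor, was at 5.11 and 30.3 TPM in WT livers and at 25.7 and 10.9 TPM in KO livers. The groups of all 3 overlapped, and *Bcl3* in KO replicate 1 came close to its level in WT replicate 3. *Cebpb*, a C/EBP factor, was at 51.7 and 156 TPM in WT livers and at 81.9 and 76.8 TPM in KO livers, and *Nfkbiz*, a cofactor of NF-kB, was at 0.355 and 3.73 TPM in WT livers and at 1.45 and 0.383 TPM in KO livers. What set WT replicate 3 apart was not tested.

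**Figure D4:**
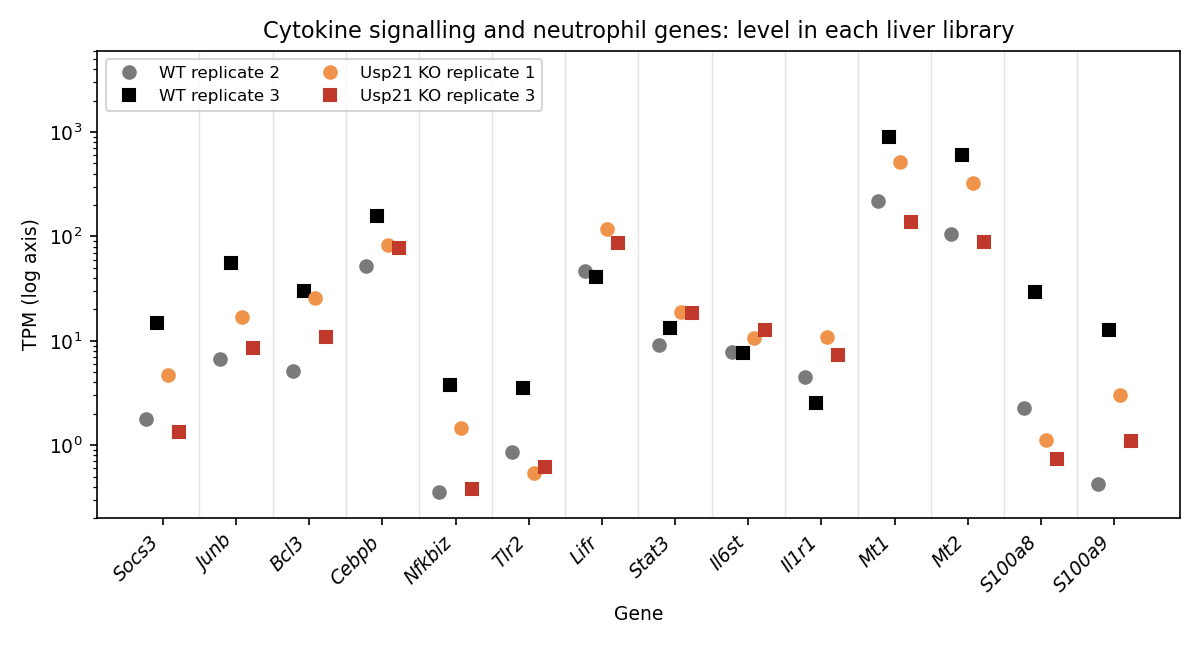
Level in TPM (log axis) of cytokine signalling genes, metallothioneins and 2 neutrophil markers in the 4 liver libraries, 1 point per mouse. WT replicate 3 (black squares) is the highest library for *Socs3*, *Junb*, *Bcl3*, *Cebpb*, *Nfkbiz*, *Tlr2*, *Mt1*, *Mt2*, *S100a8* and *S100a9*, whereas for *Lifr*, *Stat3*, *Il6st* and *Il1r1* both KO points lie above both WT points.

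Glucocorticoids act together with IL-6 on acute phase genes, and of 15 glucocorticoid response genes 6 were higher and 1 was lower in KO at an unadjusted p of 0.05, with 0 past the adjusted threshold by limma and a median log2 fold change of 0.42. Of all genes, 8.45% were higher and 2.04% lower at this p, with a median of 0.15, and after upper quartile scaling the medians were 0.29 for this list and 0.04 for all genes. The smallest p-values were those of *Lpin1*, a phosphatidate phosphatase (10.3 and 23.1 TPM in WT livers, 52.5 and 54.8 TPM in KO livers, log2 fold change 1.73), the transcription factor *Zbtb16* (0.773 and 0.904 against 4.61 and 2.83 TPM, 1.34) and the clock gene *Per1* (3.84 and 4.07 against 1.90 and 1.59 TPM, -0.86). Of 14 liver transcription factors, 2 were higher at an unadjusted p of 0.05: *Hnf4a* (112 and 105 TPM in WT livers, 171 and 155 TPM in KO livers, log2 fold change 0.59) and *Onecut1* (2.41 and 1.45 against 10.5 and 3.73 TPM, 1.35). *Foxa1*, a pioneer factor, had a log2 fold change of 1.06, and the median of the 14 was 0.18, close to that of all genes. Of 22 receptors and binding partners of the members, 17 were tested, 0 had an unadjusted p under 0.05 by limma, and the median was -0.09. *Lrp1*, a scavenger receptor that clears haemopexin-bound haem (0.48), *Scarb1*, the high-density lipoprotein receptor (0.62), and *Tlr2*, a receptor of bacterial lipoproteins (-0.88), came first by p.

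Markers of other cell types were checked because several members are also made outside hepatocytes. All 10 hepatocyte markers were high, summing to between 52362 and 75672 TPM. In KO 5 of these markers were higher and 5 lower, against 66.7% of all genes higher. The markers' median log2 fold change was -0.01, compared with 0.15 over all genes. At an unadjusted p under 0.05 by limma, 3 of them were higher in KO and 0 lower, against 8.45% and 2.04% of all genes. The 3 were *Hnf4a*, *Apob*, the structural protein of low-density lipoprotein (0.52), and *Tat*, tyrosine aminotransferase (0.79). The 13 Kupffer cell and macrophage markers summed to 265 and 326 TPM in WT livers and to 151 and 381 TPM in KO livers, with a median log2 fold change of -0.22 and 0 genes at an unadjusted p under 0.05. In KO replicate 3, 11 of these 13 were at least 2-fold higher than in KO replicate 1, against 2.18% of all genes, and the part of these cells in the members was not tested. *Csf1r*, *Cd5l* and *C1qb* came first by p, with log2 fold changes of -0.68, -0.70 and -0.46. Of 7 adipocyte markers only *Car3*, which hepatocytes also express, was tested (0.29), and *Plin1*, *Retn* and *Lep* were listed at 0 in all libraries. Of 13 endothelial, stellate and bile duct markers 9 were tested, with 9 higher and 0 lower in KO, against 66.7% of all genes higher. Without WT replicate 3, 7 were higher and 2 lower. Their median with all libraries was 0.22, compared with 0.15 over all genes. At an unadjusted p of 0.05 by limma 1 gene was higher (*Lyve1*), against 8.45% of all genes. *Lyve1*, *Dcn* and *Reln* came first by p (0.98, 0.52 and 0.58).

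*Apcs* and *Crp* lie on the same chromosome as the deleted gene. *Crp* starts 1.41 Mb and *Apcs* 1.61 Mb from the start of *Usp21*, and alleles of the ES cell strain can be carried along with the KO allele over such distances. Loss of *Usp21* and strain differences in this region cannot be told apart in these samples. Within 2 Mb of *Usp21*, 40 protein-coding genes besides *Usp21* were tested, *Apcs* and *Crp* among them. Of these 40, 23 were higher and 17 lower in KO (median log2 fold change 0.06), against 66.7% of all genes higher (median 0.15). At least 2-fold differences were found for 4 of them, 2 higher and 2 lower, against 2.59% and 1.1% of all genes. *Rgs5*, a regulator of G protein signalling (1.51), and *Apcs* were higher, and *Cfap126*, a cilium gene (-1.38), and *Dusp23*, a phosphatase (-1.77), were lower. *Dusp23* was at 10.8 and 9.71 TPM in WT livers and at 2.52 and 2.11 TPM in KO livers (unadjusted p of 0.000337 and adjusted p of 0.158 by limma), and its start lies 1.34 Mb from that of *Usp21*, between *Usp21* and *Apcs*. The Fc receptor genes of this region, whose products can bind pentraxins, had overlapping groups, namely *Fcgr2b* (0.14), *Fcgr3* (-0.32), *Fcgr4* (0.08) and *Fcer1g* (-0.28).

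**Figure D5:**
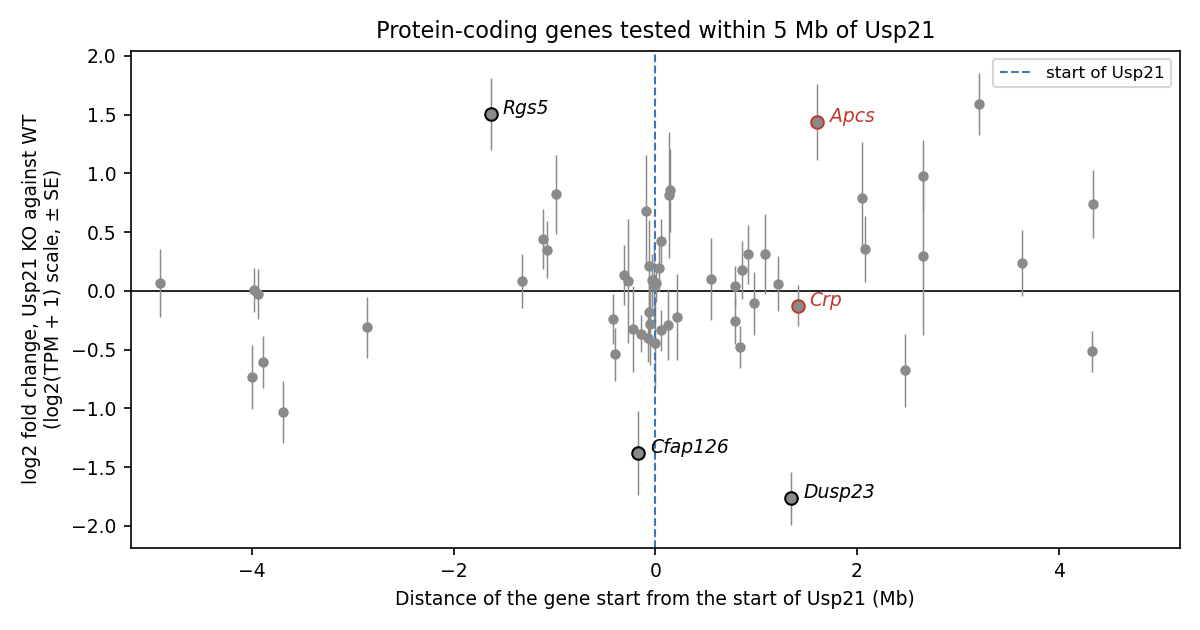
Log2 fold change (± SE, log2(TPM + 1) scale) of protein-coding genes tested within 5 Mb of *Usp21*, by the distance of each gene's start from that of *Usp21* in Mb. *Apcs* (1.43) and *Crp* (-0.12), in red, lie close together with different values, and *Dusp23* (-1.77) near them has the opposite sign to *Apcs*.

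The genes whose profile over the 4 libraries came closest to that of *Apcs*, by Euclidean distance between centred log2(TPM + 1) values, lie on other chromosomes. They were *Vps33b*, a vesicle sorting gene (distance 0.0598, 0.535 and 1.40 TPM in WT livers and 5.49 and 3.24 TPM in KO livers), *Ythdc1*, a reader of methylated RNA (distance 0.153, 4.52 and 8.59 against 22.1 and 13.6 TPM) and *Macf1*, a cytoskeletal linker (distance 0.172, 2.18 and 4.21 against 11.3 and 7.54 TPM). With 4 libraries and 9581 genes, near matches of this kind describe the shape and not a relation.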

How the data were processed

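Liver RNA of 2 WT and 2 *Usp21* KO mice was analysed, with genotype and replicate taken from the labels and each column from its name. The authors estimated abundance with salmon against a transcriptome named mm10 and deposited it per gene as TPM, which keeps no read depth. The authors also counted reads per gene with HTSeq and deposited TMM-normalized CPM, a count-based signal in which low values are whole multiples of 1 read. That gave between 102898 and 148164 reads per library, and 100% of values came out whole within 0.02 reads. The limit for a count of 0 was set at 3 reads (20.0 to 27.7 CPM) and covers counting error only. This table lists 7 of the 10 members, and 428 of 682 genes with at least 100 TPM in all libraries, at 0 in every library, and *Hp*, *Crp* and *Saa4* have at most 1 read in a library, so the TPM were used. Versions of these tools and the annotation release are not given in the sources used here. The matching log-scale tables of the same values were not used, and every other per-sample column was used (0 set aside).

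Genes averaging 1 TPM or more were tested on log2(TPM + 1) with limma 3.58.1 (lmFit, eBayes with a trend) in R 4.3.3, two-sided, with Benjamini-Hochberg adjustment over 9581 genes. The prior degrees of freedom were 3.62. The study used an ANOVA in Partek, which was not repeated. Fold changes are on the log2(TPM + 1) scale and understate changes of low genes. Ratios of *Apcs* to other members were compared by exact permutation tests. Named were the members, *Usp21*, the 3 genes with the smallest unadjusted p of each of 13 lists, Fc receptors and genes changed at least 2-fold near *Usp21*, and the 3 genes most like *Apcs*. The members and lists were chosen with earlier results of these data known. Coordinates and transcripts came from GENCODE M21 (GRCm38) and transcripts were aligned with Biopython. No protein sequence was used here, so likeness was given between transcripts. The scripts were tested on simulated data. Alternatives were other pseudocounts (0.1 and 5), filters (none, 5 TPM), scalings, no moderation, summed near-identical copies, edgeR 4.0.16 and DESeq2 1.42.0 on the recovered reads, and each library left out.
Results for 1 further gene of the lists are not reported here.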

Additional observations from a re-analysis of the deposited data

How the results depend on the processing

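*Apcs* was higher in KO under every alternative on the TPM, and it could not be tested on the recovered reads, where it has none. No paired analysis was possible because the labels give no pairing of the mice. In the fits without 1 library, the lone sample of a genotype is assumed to vary like the other genotype. Leaving out each library in turn gave between 1 and 6 members with an unadjusted p under 0.05 (1 with all libraries), between 3 and 5 changed at least 2-fold (4), between 3 and 8 lower in KO (7), and a members' median log2 fold change between -0.82 and 0.45 (-0.41). The log2 fold change ranged from -2.87 to 1.61 for *Saa1*, -3.60 to 0.66 for *Saa2*, -0.65 to 0.91 for *Saa4*, -0.68 to 0.24 for *Orm1* and -2.79 to 0.12 for *Orm2*. *Saa4* was also reversed by TMM scaling (-0.034) and upper quartile scaling (-0.00086). Both scalings gave 2 members with an unadjusted p under 0.05, while limma without moderation gave 0. On the CPM table (limma) and on the recovered reads (edgeR and DESeq2), where only 3 members have any reads, 0 members had an unadjusted p under 0.05, 2 were lower in KO, and the median was -1.56, -2.36 and -1.52; edgeR and DESeq2 each had 2 members changed at least 2-fold. Summing near-identical copies also left 2 changed at least 2-fold. A window of 1 Mb around *Usp21* held 1 gene changed at least 2-fold, against 4 for 2 Mb. Of all genes, 8 passed the adjusted threshold, 0 without moderation or without any 1 library, 4 with no filter, and 1 on the CPM table or with DESeq2, and at least 2-fold changes numbered 353 with all libraries, 115 and 820 with pseudocounts of 5 and 0.1, 203 above 5 TPM, from 463 to 695 with 1 library left out, and 3134, 2915 and 3018 on the CPM table, with edgeR and with DESeq2. The counts of at least 2-fold changes do not share one base, so they cannot be compared directly between the TPM and the reads. The fit with all libraries tested 9581 genes on the TPM. The CPM table lists 50189 of its 55335 genes at 0 in every library. The cause of the changes between settings was not tested.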
